A study of Mus musculus with 16 samples.

Results

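The Toll-like receptors are the 10 genes Tlr1, Tlr2, Tlr3, Tlr4, Tlr5, Tlr6, Tlr7, Tlr8, Tlr9 and Tlr13, taken by symbol from the count table of F4/80+ adipose tissue macrophages (ATMs). All 10 were found among its 37310 gene identifiers. The cells were selected by F4/80, a macrophage surface protein encoded by Adgre1, from the epididymal fat of male mice. The study asked how interferon regulatory factor 5 (IRF5), a transcription factor that works downstream of these receptors, shapes ATMs under caloric excess. Mice labelled IRF5-KO carried floxed Irf5 alleles recombined by LysM-Cre, which is expressed from the Lyz2 locus of myeloid cells, and wild-type (WT) mice were the controls. All mice were fed a high-fat diet (HFD), for 4 weeks (ST-HFD) or 12 weeks (LT-HFD). Each genotype had 4 libraries at each duration, or 16 in all, and the libraries held 3279332 to 4958131 counts.

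Toll-like receptors recognise molecules of microbes and of damaged cells. The proteins of Tlr1, Tlr2, Tlr4, Tlr5 and Tlr6 sit at the cell surface, where they bind bacterial lipopeptides, lipopolysaccharide and flagellin, and those of Tlr3, Tlr7, Tlr8, Tlr9 and Tlr13 sit in endosomes, where they bind RNA or DNA. Most of them signal through the adaptor MyD88 to NF-κB and IRF5 and induce inflammatory cytokines. In adipose tissue, macrophages are among the cells that express them.

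The members lie on 7 chromosomes of the GRCm38 annotation. Tlr7 (ENSMUSG00000044583, chrX:167304929-167330558) and Tlr8 (ENSMUSG00000040522, chrX:167242696-167264329) are neighbours on the minus strand, and Tlr13 (ENSMUSG00000033777, chrX:106143204-106160493) lies on the plus strand of the same chromosome. Tlr1 (ENSMUSG00000044827, chr5:64924679-64933563) and Tlr6 (ENSMUSG00000051498, chr5:64952031-64960097) are neighbours on the minus strand of chromosome 5. Tlr2 (ENSMUSG00000027995) is at chr3:83836272-83841767 and Tlr3 (ENSMUSG00000031639) at chr8:45395665-45411080, both on the minus strand. Tlr4 (ENSMUSG00000039005) is at chr4:66827584-66930284, Tlr5 (ENSMUSG00000079164) at chr1:182954788-182976044 and Tlr9 (ENSMUSG00000045322) at chr9:106222598-106226883, all on the plus strand. Of the stretches of 50 bases in the exons of Tlr1, 15.4% also occur in other genes, and of those of Tlr6 12.3%. Tlr1 and Tlr6 share 454 of these stretches with each other, so the split of counts between them is uncertain. Tlr3 shares 381 exon bases with Gm45542 on the opposite strand, and the strand setting of the counting is not given in the sources used here. The other 9 members share no exon bases with another annotated gene.

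Tlr5 and Tlr9, the 2 members whose counts fell between the diet durations in the libraries labelled IRF5-KO, have the promoters below, shown because the results turn on these genes. Each line gives the 250 bases before the start in the RefSeq promoter table (GRCm38.p6), Tlr5 from chr1:182954538-182954787 and Tlr9 from chr9:106222348-106222597, both on the plus strand. Capitals mark the matches to the motifs searched.
Tlr5: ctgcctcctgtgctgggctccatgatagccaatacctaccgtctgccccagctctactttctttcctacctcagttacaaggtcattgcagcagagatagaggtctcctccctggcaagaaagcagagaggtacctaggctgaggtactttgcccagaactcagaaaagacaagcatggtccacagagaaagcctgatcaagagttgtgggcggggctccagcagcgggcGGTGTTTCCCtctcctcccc
Tlr9: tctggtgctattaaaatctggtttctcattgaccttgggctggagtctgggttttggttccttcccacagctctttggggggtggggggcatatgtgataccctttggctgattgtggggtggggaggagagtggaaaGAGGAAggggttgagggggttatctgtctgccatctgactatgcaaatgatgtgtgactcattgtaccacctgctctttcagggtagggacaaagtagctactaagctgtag
The motifs searched on both strands were GAGGAA, the core bound by PU.1, GAAANNGAAA, a core of interferon-stimulated response elements, and GGGNNNNNCC, a loose form of the NF-κB site. The capitals of Tlr5 match the NF-κB form on the opposite strand, 11 to 20 bases before the start, and those of Tlr9 match GAGGAA 107 to 112 bases before it. GAGGAA was present in 4 of the 10 promoter entries of the members and in 23.3% of all 32851 promoters, the response element core in 1 of 10 and 2.98%, and the NF-κB form in 4 of 10 and 45.8%. The entries covered 8 members, with 2 each for Tlr1 and Tlr6. Tlr5 and Tlr9 share none of the 3 motifs in these windows.

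Over all libraries, ATMs held the 3 X-linked endosomal receptors at the highest mean levels. Levels between genes are given as RPKM, counts per kilobase of merged exons scaled to library size. Over the 16 libraries the mean was 35.9 ± 5.16 RPKM (SD, n = 16) for Tlr7, 32.7 ± 4.82 RPKM for Tlr8 and 27.7 ± 10.7 RPKM for Tlr13, which encode sensors of single-stranded RNA and, for Tlr13, of bacterial ribosomal RNA. Tlr2, the lipopeptide receptor that pairs with the products of Tlr1 and Tlr6, followed at 24.0 ± 5.42 RPKM, and Tlr4, the lipopolysaccharide receptor, at 14.4 ± 2.97 RPKM. Lower levels were found for Tlr9, the receptor of unmethylated CpG DNA, at 9.85 ± 3.61 RPKM, for Tlr5, the flagellin receptor, at 7.76 ± 2.98 RPKM and for Tlr1 at 7.24 ± 1.81 RPKM. Tlr6, at 2.96 ± 0.63 RPKM, and Tlr3, the receptor of double-stranded RNA, at 1.22 ± 0.32 RPKM, were the lowest. Tlr3 had 10 to 40 counts per library, so its values carry a large counting error. Tlr11 and Tlr12, the remaining mouse receptors, had 0 to 13 and 0 to 6 counts per library and did not pass the filter on low counts, which all 10 members passed in every comparison.

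The order of the upper members was not resolved in most groups. In WT ST-HFD the ranges of neighbouring members overlapped from Tlr8 and Tlr7 at the top, at 33.3 ± 4.69 and 33.0 ± 4.99 RPKM (SD, n = 4), down to Tlr5 at 10.5 ± 2.47 RPKM. From Tlr5 down to Tlr1, Tlr6 and Tlr3 each was separated from the next. In IRF5-KO ST-HFD only Tlr1 and Tlr6 were neighbours without overlap, and the mean of Tlr2, at 23.5 ± 5.76 RPKM, was above that of Tlr13, at 23.2 ± 10.8 RPKM. In WT LT-HFD Tlr7, at 41.2 ± 1.39 RPKM, stood above Tlr8 with no overlap, Tlr2 stood above Tlr4, and Tlr5 stood above Tlr6. In IRF5-KO LT-HFD Tlr2 stood above Tlr4, Tlr4 above Tlr1, and Tlr6 above Tlr3. Between these groups the place of Tlr9 by mean level was 5 in WT ST-HFD, 6 in IRF5-KO ST-HFD and 7 in both LT-HFD groups. Tlr5 was at place 7 on ST-HFD and 8 on LT-HFD, and Tlr1 at 8 and 6.

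The endosomal members together made up 66.7% ± 3.95 of the summed RPKM in WT ST-HFD (SD, n = 4), 64.0% ± 4.52 in IRF5-KO ST-HFD, 64.3% ± 3.79 in WT LT-HFD and 66.5% ± 3.46 in IRF5-KO LT-HFD. The summed level of the 10 members was 158 ± 16.5, 153 ± 9.26, 172 ± 17.4 and 172 ± 11.3 RPKM in the same order. The ranges of the groups overlapped for both measures.

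**Figure D1:**
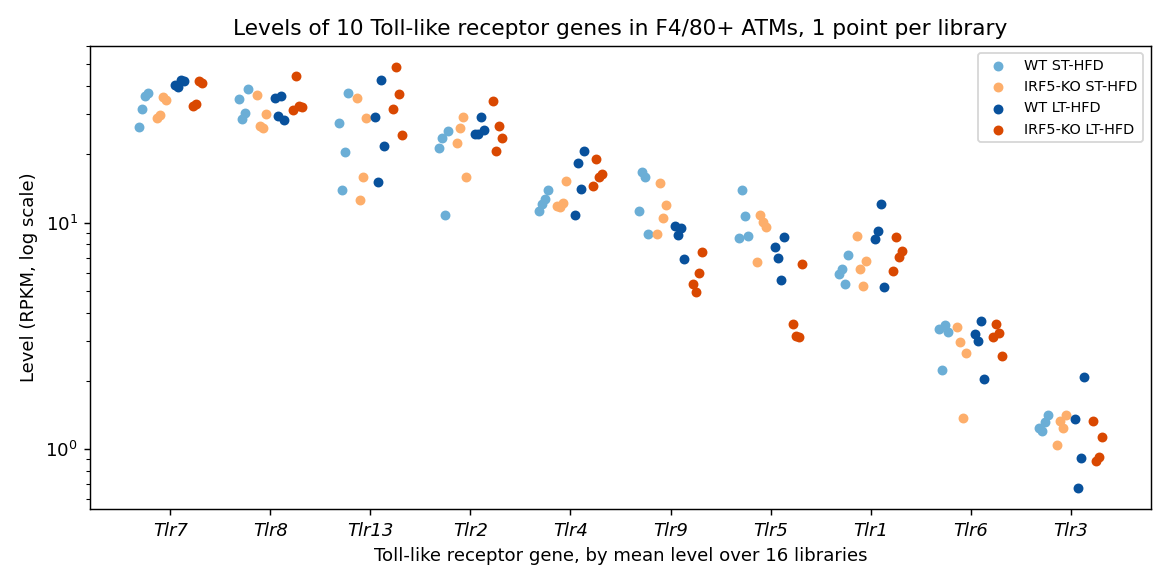
Levels of the 10 Toll-like receptor genes on a log axis in RPKM, with 1 point for each of the 16 libraries and the genes ordered by their mean. Tlr7, Tlr8 and Tlr13 are the highest and Tlr3 the lowest, and in IRF5-KO the points of Tlr9 and Tlr5 lie lower on LT-HFD than on ST-HFD, while in WT the durations overlap.

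Each genotype label was checked first. Irf5 was at 203 to 252 CPM (counts scaled to library size) in WT ST-HFD and 250.4 to 273.5 CPM in IRF5-KO ST-HFD, and at 171 to 213 CPM in WT LT-HFD and 206 to 253.5 CPM in IRF5-KO LT-HFD. The libraries labelled IRF5-KO thus held no fewer Irf5 counts. Counts summed over the whole gene cannot show a loss of single exons, so genotypes are given below as labelled. The durations are also given as labelled, although a panel of the paper may draw Irf5 in the WT libraries as higher on LT-HFD. The labelled WT libraries here had less Irf5 on LT-HFD on average. Were the 2 durations exchanged, every direction between durations would be reversed. Lyz2, the locus that carries Cre, was lower in the libraries labelled IRF5-KO without overlap, at 1395 to 1973 against 3095 to 3783 CPM on ST-HFD and at 1689 to 2062 against 2968 to 4043 CPM on LT-HFD. All 7 macrophage markers had counts in every library, and Adgre1 was at 507 to 995 CPM. Summed B cell markers reached at most 9.43 CPM and T cell markers 21.6 CPM. Summed fibroblast markers (Pdgfra, Dcn, Col1a1, Col3a1 and Lum) were at 555 to 1333 CPM on ST-HFD and 2420 to 7103 CPM on LT-HFD. All 5 of them had counts in every library, and all 5 were higher on LT-HFD in both genotypes by the test used below. WT ST-HFD replicate 3 and IRF5-KO ST-HFD replicate 4 stood apart from the other ST-HFD libraries in Tnfaip3, an NF-κB feedback gene, at 145 and 384 CPM against 946 to 1272 CPM. In bulk RNA, fewer cells of a type and less RNA per cell cannot be told apart.

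On ST-HFD no member passed the test between genotypes. In the quasi-likelihood test of edgeR, with Benjamini-Hochberg adjustment over all 10958 genes tested, 0 of the 10 members had an adjusted p under 0.05, against 0.00913% of all tested genes. At an unadjusted p under 0.05 the count was again 0 of 10, against 1.84% of all genes, DESeq2 called 0 of 10, and the genotypes overlapped for every member, against 1.62% of genes without overlap. Tlr9 was at 39.2, 58.0, 55.4 and 31.1 CPM in WT replicates 1 to 4 and at 30.9, 52.2, 36.5 and 41.6 CPM in IRF5-KO. The libraries of both genotypes covered much the same range, and the log2 fold change was -0.19 (SE 0.21, 95% confidence interval -0.66 to 0.27). Tlr5 was at 41.0, 66.4, 51.1 and 41.7 CPM in WT and at 32.1, 51.7, 48.1 and 45.5 CPM in IRF5-KO, a log2 fold change of -0.18 (SE 0.18, 95% confidence interval -0.58 to 0.22). Tlr1 differed by 0.12 on the log2 scale, Tlr2 by 0.20, Tlr3 by -0.05, Tlr4 by 0.02, Tlr6 by -0.26, Tlr7 by -0.04, Tlr8 by -0.16 and Tlr13 by -0.10. The intervals of these 8 members also included 0 and were narrowest for Tlr4, at -0.24 to 0.28, and widest for Tlr13, at -0.89 to 0.68. The median log2 fold change of the members was -0.08, and that of all tested genes was 0.00.

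On LT-HFD no member passed the adjusted threshold, and the 2 with the smallest p were Tlr5 and Tlr9. Of the 10 members, 0 had an adjusted p under 0.05, against 0.0182% of the 10987 genes tested, and DESeq2 called 0 of 10. At an unadjusted p under 0.05 there were 2 of 10, against 5.72% of all genes. Tlr5 was at 37.2, 33.5, 26.7 and 41.3 CPM in WT replicates 1 to 4 and at 17.1, 15.2, 14.9 and 31.5 CPM in IRF5-KO. Replicates 1, 2 and 3 of IRF5-KO lay below every WT library, and replicate 4 lay within the WT range. The log2 fold change was -0.83 (SE 0.24, 95% confidence interval -1.36 to -0.30, unadjusted p = 0.00556, edgeR adjusted p = 0.853). Without IRF5-KO replicate 4 it was -1.14, with an edgeR adjusted p of 0.166. Tlr9 was at 33.7, 30.8, 32.8 and 23.9 CPM in WT and at 18.5, 17.1, 20.8 and 25.6 CPM in IRF5-KO. WT replicate 4 lay below IRF5-KO replicate 4, and the log2 fold change was -0.57 (SE 0.17, 95% confidence interval -0.95 to -0.19, unadjusted p = 0.00689, edgeR adjusted p = 0.853). The genotypes overlapped for each of the 10 members, against 3.03% of all genes without overlap.

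Among the other members on LT-HFD, the log2 fold changes ran from -0.26 for Tlr1 and Tlr3 to 0.38 for Tlr13, and every 95% confidence interval included 0. That of Tlr13 depended on single libraries, at 0.17 without IRF5-KO replicate 2, 0.18 without WT replicate 2 and 0.69 without WT replicate 3 (edgeR adjusted p = 0.985, 1 and 0.526). Tlr7 was at 165, 162, 173 and 173 CPM in WT and at 134, 136, 171 and 168 CPM in IRF5-KO, so replicates 1 and 2 of IRF5-KO were low and the other two within the WT range (log2 fold change -0.15, SE 0.11). Tlr8, at 127, 106, 129 and 102 CPM in WT and 112, 158, 118 and 117 CPM in IRF5-KO, differed by 0.12 on the log2 scale (SE 0.14), and IRF5-KO replicate 2 was the highest of these libraries. Tlr6 differed by 0.07 (SE 0.23), Tlr4 by 0.04 (SE 0.18) and Tlr2 by 0.02 (SE 0.15). The median log2 fold change was -0.07 for the members and 0.00 for all tested genes.

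The difference between the genotype effects on LT-HFD and on ST-HFD was tested as an interaction over the 16 libraries. None of the 10 members had an adjusted p under 0.05 in edgeR, the share over all 11560 genes being 0%, or an unadjusted p under 0.05, against 3.93% of all genes, and DESeq2 called 0 of 10. Tlr5 had the smallest p of the members, with an interaction of -0.65 on the log2 scale (SE 0.33, 95% confidence interval -1.34 to 0.03, unadjusted p = 0.0607, edgeR adjusted p = 0.969). For Tlr9 it was -0.38 (SE 0.29, 95% confidence interval -0.99 to 0.24). The other interactions were -0.38 for Tlr1, -0.19 for Tlr2, -0.21 for Tlr3, 0.02 for Tlr4, 0.33 for Tlr6, -0.11 for Tlr7, 0.28 for Tlr8 and 0.48 for Tlr13, and each interval included 0.

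**Figure D2:**
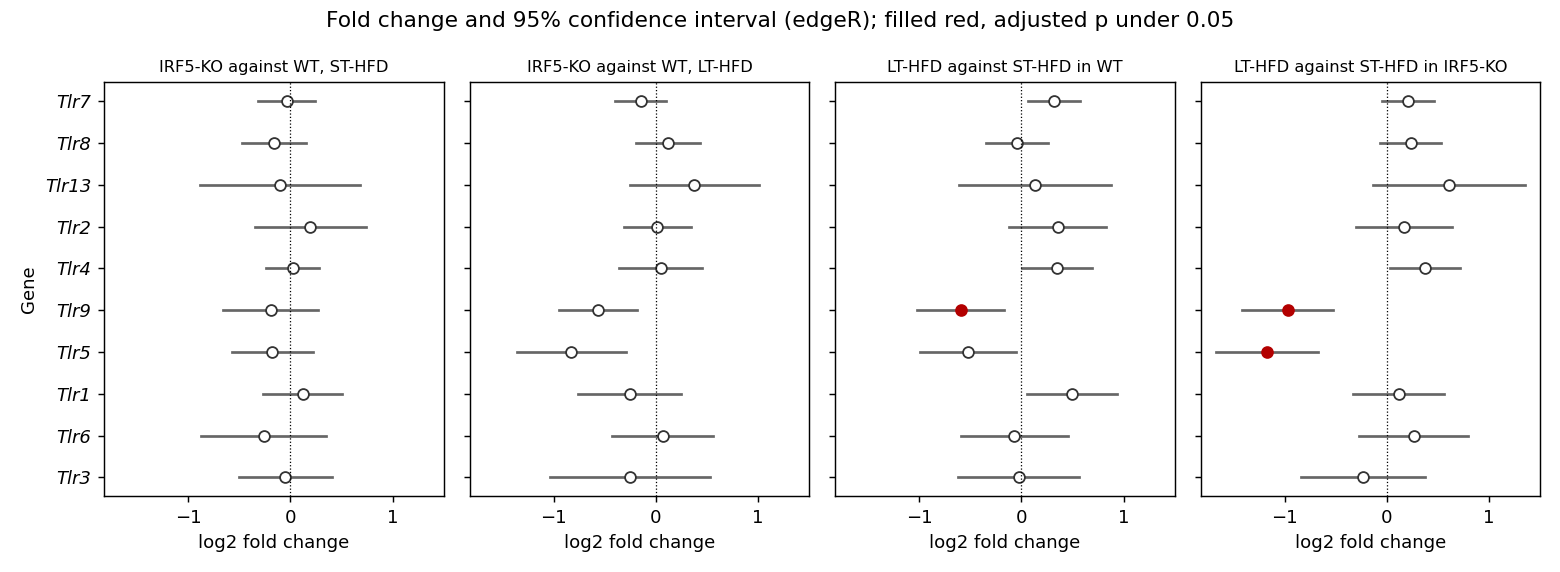
Log2 fold changes (points) of the 10 members with 95% confidence intervals (lines) in 4 comparisons, from edgeR's quasi-likelihood test, with filled red points where the adjusted p was under 0.05. No point is filled in the genotype panels, Tlr9 is filled in WT between durations, and Tlr9 and Tlr5 are filled in IRF5-KO between durations.

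Between the diet durations, Tlr9 and Tlr5 fell in the libraries labelled IRF5-KO, and Tlr9 fell in WT by a call that was lost in 9 of 23 alternative fits. These comparisons were fitted over the 16 libraries, and they use the same libraries as the genotype comparisons. In WT, 1 of 10 members had an adjusted p under 0.05, against 25.3% of all 11560 genes tested, and that member, Tlr9, was lower on LT-HFD, as were 13.2% of all genes. In IRF5-KO, 2 of 10 members passed, against 32.8% of all genes, and both, Tlr5 and Tlr9, were lower, against 17.2% of all genes. Counted in either direction, the members called were a smaller share than that of all genes in both genotypes, and the share of members that were lower was near that of all genes.

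Tlr9 had a mean of 45.9 ± 12.9 CPM (SD, n = 4) in WT ST-HFD and 30.3 ± 4.42 CPM in WT LT-HFD. WT ST-HFD replicate 4, at 31.1 CPM, lay within the LT-HFD range, and the other 3 ST-HFD libraries lay above it. The log2 fold change was -0.60 (SE 0.20, 95% confidence interval -1.02 to -0.17, edgeR adjusted p = 0.0390), a 1.51-fold lower level. This call was lost with upper-quartile factors (edgeR adjusted p = 0.0678), with a replicate block (0.0542), in a fit of the 8 WT libraries alone (0.061) and in 5 of the 16 fits that left out 1 library. Without WT ST-HFD replicate 3 the log2 fold change was -0.50 (edgeR adjusted p = 0.117), without WT ST-HFD replicate 2 it was -0.46 (edgeR adjusted p = 0.131), and without any of WT LT-HFD replicates 2, 3 and 4 the edgeR adjusted p was 0.0685, 0.0526 and 0.126. Without the 2 libraries lowest in Tnfaip3 it was -0.49 (edgeR adjusted p = 0.135).

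In IRF5-KO, Tlr9 had a mean of 40.3 ± 9.07 CPM (SD, n = 4) on ST-HFD and 20.5 ± 3.75 CPM on LT-HFD. All 4 LT-HFD libraries, at 17.1 to 25.6 CPM, lay below all 4 ST-HFD libraries, at 30.9 to 52.2 CPM. The log2 fold change was -0.97 (SE 0.21, 95% confidence interval -1.42 to -0.53, edgeR adjusted p = 0.00187), a 1.96-fold lower level. The call was kept in each of 23 alternative fits, with log2 fold changes from -1.10 to -0.83. That the fall was larger in IRF5-KO than in WT is not shown, since the interaction did not pass the test.

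Tlr5 had a mean of 44.3 ± 8.56 CPM (SD, n = 4) in IRF5-KO ST-HFD and 19.7 ± 7.95 CPM in IRF5-KO LT-HFD. Here too the durations did not overlap, although the margin was small, with LT-HFD replicate 4 at 31.5 CPM and ST-HFD replicate 1 at 32.1 CPM. The log2 fold change was -1.18 (SE 0.24, 95% confidence interval -1.67 to -0.68, edgeR adjusted p = 0.00104), a 2.26-fold lower level, and the call was kept in each of 23 alternative fits, with log2 fold changes from -1.49 to -1.07. In WT the means were 50.04 ± 11.9 CPM and 34.7 ± 6.20 CPM. The highest WT LT-HFD library, replicate 4 at 41.3 CPM, lay above the lowest ST-HFD library at 41.0 CPM, and the log2 fold change of -0.52 (SE 0.22, 95% confidence interval -0.997 to -0.05) did not pass the test (edgeR adjusted p = 0.10, and 0.0426 without IRF5-KO LT-HFD replicate 4).

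**Figure D3:**
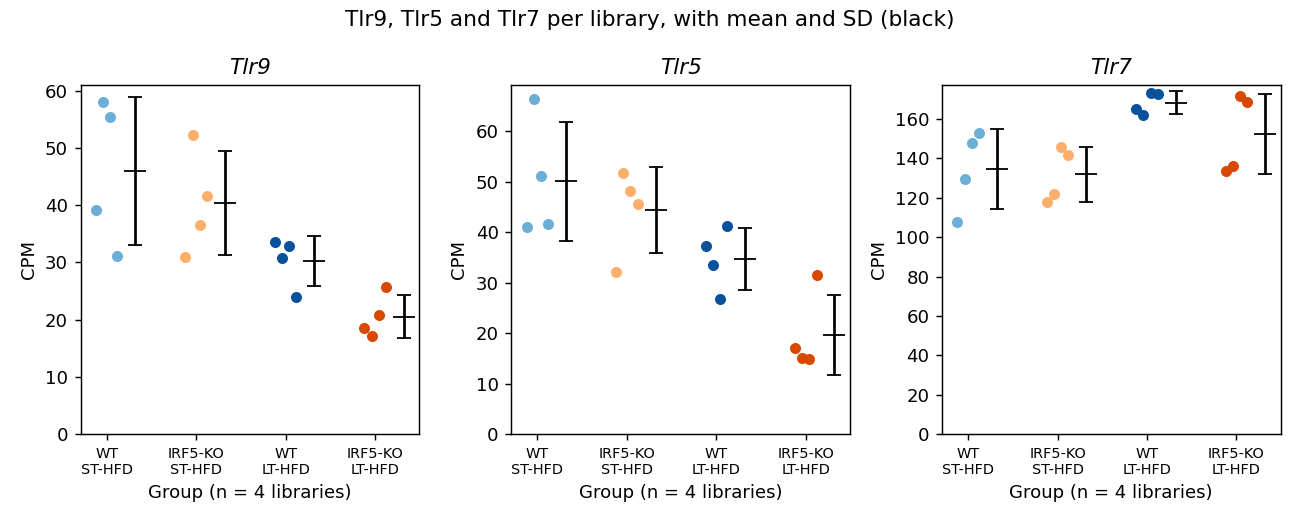
CPM of Tlr9, Tlr5 and Tlr7 in each of the 16 libraries (coloured points), with the mean and SD of each group of 4 beside them in black. For Tlr9 and Tlr5 the 4 IRF5-KO LT-HFD libraries lie below the 4 IRF5-KO ST-HFD libraries, and for Tlr7 the 4 WT LT-HFD libraries lie above the 4 WT ST-HFD libraries.

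Tlr7 was the member without overlap between durations in WT, against 26.1% of all genes, while in IRF5-KO Tlr5 and Tlr9 were the 2 without overlap, against 29.4% of all genes. Tlr7 was at 108, 130, 148 and 153 CPM in WT ST-HFD replicates 1 to 4, and at 162 to 173 CPM in WT LT-HFD. Its log2 fold change of 0.32 (SE 0.12, 95% confidence interval 0.07 to 0.58) did not pass the test (edgeR adjusted p = 0.0588), but passed it without WT ST-HFD replicate 4 (0.0341) and in 3 other alternative fits. In IRF5-KO the log2 fold change of Tlr7 was 0.21 (SE 0.12, edgeR adjusted p = 0.199) and the durations overlapped.

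The ratio of 2 members within a library does not depend on the scaling of that library, and these ratios were chosen with the falls of Tlr9 and Tlr5 known, so they restate those values on another scale and are no further support for them. There were 40.8 ± 12.1 units of Tlr9 RPKM per 100 units of Tlr7 RPKM in WT ST-HFD (SD, n = 4), 36.3 ± 9.65 in IRF5-KO ST-HFD, 21.2 ± 3.38 in WT LT-HFD and 15.8 ± 1.64 in IRF5-KO LT-HFD. The IRF5-KO libraries did not overlap between durations, at 29.4 to 50.4 against 14.2 to 17.9, and the WT libraries met at 23.9. Per 100 units of Tlr4 RPKM, Tlr5 was at 84.2 ± 22.3, 73.3 ± 16.5, 47.9 ± 16.1 and 25.3 ± 10.5 in the same order of groups. Here the IRF5-KO libraries ran from 56.6 to 91.8 after 4 weeks and from 16.5 to 40.1 after 12 weeks, and the WT libraries overlapped.

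The other surface receptors did not pass the test between durations. Tlr4 was at 62.6, 67.1, 70.6 and 77.7 CPM in WT ST-HFD and at 60.0, 102, 78.4 and 115 CPM in WT LT-HFD, so replicate 1 of LT-HFD was below every ST-HFD library and the other 3 above them (log2 fold change 0.35, SE 0.16, edgeR adjusted p = 0.130, and 0.0169 without WT LT-HFD replicate 1). In IRF5-KO it was at 65.3 to 84.4 CPM on ST-HFD and 80.5 to 107 CPM on LT-HFD (log2 fold change 0.37, SE 0.16, edgeR adjusted p = 0.0903, and 0.0426 without WT LT-HFD replicate 1). Tlr1 differed by 0.49 in WT (SE 0.21, edgeR adjusted p = 0.0980, and 0.0142 without WT LT-HFD replicate 4) and by 0.11 in IRF5-KO (SE 0.21), with the uncertainty of its shared sequence. Tlr2 differed by 0.35 in WT (SE 0.23) and by 0.17 in IRF5-KO (SE 0.22). WT ST-HFD replicate 3 and IRF5-KO ST-HFD replicate 4, the 2 libraries low in Tnfaip3, were also the lowest of their groups in Tlr2, at 32.4 and 48.0 CPM against 64.2 to 76.7 and 67.6 to 88.5 CPM in the others. Tlr6 differed by -0.07 in WT (SE 0.25) and 0.26 in IRF5-KO (SE 0.25).

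Of the remaining endosomal receptors, Tlr8 differed by -0.04 in WT (SE 0.14) and 0.23 in IRF5-KO (SE 0.14), and Tlr3 by -0.03 (SE 0.28) and -0.24 (SE 0.29). Tlr13 varied widely within groups. It was at 118, 60.1, 88.3 and 161 CPM in WT ST-HFD replicates 1 to 4, 152, 54.0, 68.2 and 125 CPM in IRF5-KO ST-HFD, 127, 65.0, 182 and 94.1 CPM in WT LT-HFD, and 136, 209.3, 159 and 104 CPM in IRF5-KO LT-HFD. The libraries of each group differed among themselves by more than the group means, and the log2 fold changes between durations were 0.13 in WT (SE 0.35) and 0.61 in IRF5-KO (SE 0.35, edgeR adjusted p = 0.203).

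Markers of other cells were measured beside the fall of Tlr9 and Tlr5. Of the 5 plasmacytoid dendritic cell markers (Siglech, Bst2, Ccr9, Tcf4 and Klk1), 2 or 3 had counts in every library of a group. Their summed level was 137 to 181 CPM in WT ST-HFD, 142 to 207 CPM in IRF5-KO ST-HFD, 108 to 146 CPM in WT LT-HFD and 86.5 to 131 CPM in IRF5-KO LT-HFD, most of it Tcf4. Klk1 was at 0 in every library and Ccr9 at 0 in 9 of 16. Siglech, which encodes a receptor of these cells, was at 4.71 to 15.9, 7.02 to 18.7, 1.95 to 10.1 and 0 to 3.04 CPM in the same order, and it fell by 3.13 on the log2 scale between durations in IRF5-KO (edgeR adjusted p = 0.00215), while in WT the log2 fold change was -0.88 (edgeR adjusted p = 0.302). Of the 2 other markers of this list that were tested, Tcf4 fell by 0.55 in IRF5-KO (edgeR adjusted p = 0.0172) and differed by -0.35 in WT (0.137), and Bst2 differed by 0.19 and -0.11 (0.59 and 0.796). Summed conventional dendritic cell markers (Flt3, Zbtb46, Xcr1, Clec9a and Cd209a) were at 43.0 to 102, 43.7 to 107, 42.0 to 110 and 15.2 to 55.3 CPM, and summed B cell markers at 3.51 to 6.33, 2.81 to 5.92, 6.51 to 9.43 and 6.24 to 8.99 CPM. Of the conventional dendritic cell list, Cd209a had the highest mean in every group. Summed neutrophil markers (S100a8, S100a9, Retnlg, Csf3r and Mmp9) were at 52.8 to 94.5, 51.9 to 103, 50.2 to 187 and 23.0 to 81.2 CPM, most of it Csf3r and Mmp9. The group means of S100a8, S100a9 and Retnlg were 0 to 0.76 CPM. Summed adipocyte markers were at 25.4 to 38.8, 23.1 to 49.1, 17.5 to 37.7 and 7.86 to 43.3 CPM, and summed endothelial markers at 10.9 to 29.5, 10.3 to 71.0, 10.0 to 26.2 and 15.2 to 56.2 CPM. Single markers of these lists that fell in IRF5-KO were Cd209a of conventional dendritic cells by 1.52, Csf3r of neutrophils by 0.82 and Cidec of adipocytes by 1.05 on the log2 scale (edgeR adjusted p = 0.0159, 0.0122 and 0.0484), each with durations that overlapped, and none of the 3 passed in WT. These calls stand against 17.2% of all tested genes called lower in IRF5-KO. The means of other markers of these lists went both ways in IRF5-KO. Plin1 was at 3.37 CPM on ST-HFD and 4.06 CPM on LT-HFD, and Lep at 11.4 and 5.84 CPM. The 7 macrophage markers went different ways. Csf1r, the macrophage growth factor receptor, fell by 0.62 in WT and 0.88 in IRF5-KO on the log2 scale (edgeR adjusted p = 0.00100 and 3.13e-05), and the integrin gene Itgam by 0.56 and 0.59 (0.0032 and 0.00173). Adgre1 rose by 0.46 in IRF5-KO (edgeR adjusted p = 0.0235) and differed by 0.20 in WT (0.356), and Fcgr1, an Fc receptor gene, rose by 0.44 in IRF5-KO (0.0445) and differed by -0.08 in WT (0.758). Cd68, Mertk and Lyz2 did not pass in either genotype. The part of these cell types, and of the fibroblast transcripts above, in the changes of Tlr9 and Tlr5 was not tested.

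Of 64 other listed genes of the pathway, from co-receptors and chaperones to inhibitors and target genes, 61 were tested. None had an adjusted p under 0.05 between genotypes on ST-HFD or LT-HFD or in the interaction by edgeR, with or without a replicate block. At an unadjusted p under 0.05 there were 2, 3 and 4 of 61, against 1.84%, 5.72% and 3.93% of all genes, and with the block 2, 4 and 4, against 4.12%, 5.47% and 5.39%. Myd88, the common adaptor, differed by 0.07 (SE 0.11) on ST-HFD and 0.02 (SE 0.13) on LT-HFD. Unc93b1, which escorts endosomal receptors from the endoplasmic reticulum, differed by -0.12 on both (SE 0.09 and 0.12). The smallest p of each comparison belonged to Traf3 on ST-HFD (log2 fold change 0.33, SE 0.14), to the interferon-β gene Ifnb1 on LT-HFD (-1.32, SE 0.43) and to Ly96, which encodes the partner of the Tlr4 protein, in the interaction (-1.06, SE 0.38), with edgeR adjusted p of 1, 0.853 and 0.969.

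Between durations, 7 of the 61 genes rose and 10 fell in WT, and 4 rose and 13 fell in IRF5-KO. These 17 genes of 61 stand against 25.3% of all tested genes in WT and 32.8% in IRF5-KO, and the counts by role below are to be read against the same shares, with no test of any role. With a replicate block 7 rose and 9 fell in WT, against 23.6% of all genes called. In IRF5-KO 4 rose and 13 fell with the block, against 31.3%. Without the 2 libraries low in Tnfaip3, 5 of the 61 rose and 7 fell in WT, all 12 among the 17 above, and the calls of Ly96, Pik3ap1, Traf3, Irf5 and Tollip were lost (edgeR adjusted p = 0.071, 0.0584, 0.0687, 0.131 and 0.0796). In IRF5-KO all 17 were kept and the inhibitor genes Atf3, Tnfaip3 and Zc3h12a and the chemokine genes Ccl3 and Cxcl2 were also called lower, of which Tnfaip3 itself chose the libraries left out. The median log2 fold change of the 61 was -0.03 in WT and -0.14 in IRF5-KO, against 0.02 and 0.04 for all tested genes. The folding chaperones of the receptors were among those that fell. Hsp90b1, which encodes gp96, the chaperone needed to fold most Toll-like receptors, was at 625 to 768 CPM in WT ST-HFD, 576 to 748 CPM in IRF5-KO ST-HFD, 360 to 452 CPM in WT LT-HFD and 318 to 388 CPM in IRF5-KO LT-HFD, with no overlap between durations. It fell by 0.83 in WT (SE 0.11, edgeR adjusted p = 4.82e-05) and by 0.93 in IRF5-KO (SE 0.11, edgeR adjusted p = 1.05e-05). Its co-chaperone Cnpy3 fell by 0.44 (SE 0.14) and 0.63 (SE 0.14), and Slc15a4, an endolysosomal transporter, rose by 0.46 in both (SE 0.13). Unc93b1 differed by -0.14 in both genotypes (SE 0.10) and did not pass the test, so 1 of the 8 genes for folding, trafficking and processing rose and 2 fell in each genotype.

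Of the 6 co-receptor genes, 2 rose in WT, and 1 rose and 1 fell in IRF5-KO. Lbp, which encodes the lipopolysaccharide-binding protein, rose by 2.01 in WT (SE 0.46) and 1.89 in IRF5-KO (SE 0.45) from means of 4.48 and 5.24 CPM. On ST-HFD it had only 14 to 32 counts per library in WT and 10 to 31 in IRF5-KO. The part of the fibroblast transcripts, which also rose, in the change of Lbp was not tested. Ly96 rose by 0.79 in WT (SE 0.27, edgeR adjusted p = 0.0358), and Cd14, the lipopolysaccharide co-receptor, fell by 0.38 in IRF5-KO (SE 0.12, edgeR adjusted p = 0.0197). Of the 5 adaptors tested, the phosphoinositide 3-kinase adaptor Pik3ap1 fell by 0.55 in WT (SE 0.18, edgeR adjusted p = 0.0346), none passed in IRF5-KO, and Myd88 differed by 0.00 and -0.07 (SE 0.12).

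Of 16 kinases and ubiquitin ligases, 5 fell and 1 rose in each genotype. Irak4, Ikbkb and Tab2 had the smallest p in WT, with falls of 0.73, 0.57 and 0.36 on the log2 scale (SE 0.15, 0.13 and 0.10). In IRF5-KO these were Irak1, Ikbkb and Traf3, with falls of 0.53, 0.67 and 1.02 (SE 0.10, 0.13 and 0.21). Among 6 transcription factors, Nfkb1 fell in WT by 0.40 (SE 0.10) and in IRF5-KO by 0.60 (SE 0.10), Irf5 fell in WT by 0.30 (SE 0.11, edgeR adjusted p = 0.0485) and Rela in IRF5-KO by 0.56 (SE 0.13).

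Of 9 inhibitors tested, 2 rose in WT, and 1 rose and 1 fell in IRF5-KO. The cytokine signalling suppressor Socs1 rose by 1.45 in WT (SE 0.35, edgeR adjusted p = 0.00565) and Tollip, which binds the IRAK kinases, by 0.33 in WT and 0.42 in IRF5-KO (SE 0.11). Rnf216, a ubiquitin ligase, fell by 0.58 in IRF5-KO (SE 0.15). Of 11 target genes tested, the chemokine gene Ccl4 rose by 1.03 in WT (SE 0.34, edgeR adjusted p = 0.0339), with no overlap between durations. WT ST-HFD replicate 3, low in Tnfaip3, was also the lowest WT library in Ccl4, at 31.9 CPM against 80.0 to 188.6 CPM in the others, and in Socs1, at 2.28 against 3.02 to 10.8 CPM. Without the 2 libraries low in Tnfaip3, Ccl4 rose by 0.79 and Socs1 by 1.31 in WT (edgeR adjusted p = 0.0263 and 0.0137). In IRF5-KO Il1b fell by 1.96 (SE 0.57, edgeR adjusted p = 0.0147) and Cxcl10 by 1.14 (SE 0.39, edgeR adjusted p = 0.0318), both with durations that overlapped. Il1b differed by -0.67 in WT (SE 0.58), and its interaction did not pass the test (edgeR adjusted p = 0.969).

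**Figure D4:**
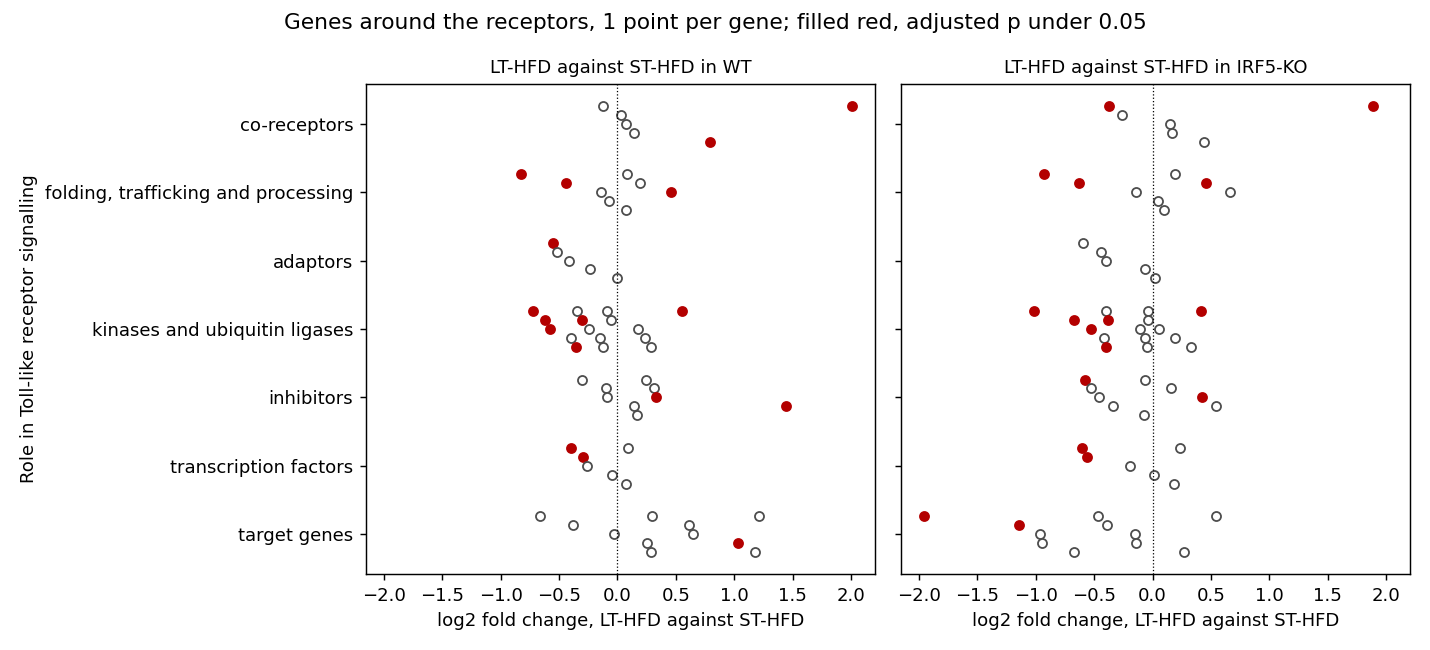
Log2 fold changes between LT-HFD and ST-HFD for the 61 tested genes around the receptors, 1 point per gene in rows by role, in WT (left) and IRF5-KO (right), with filled red points where the edgeR adjusted p was under 0.05. In WT 7 filled points lie right and 10 left of 0, and in IRF5-KO 4 lie right and 13 left.

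Within groups, some members varied together and others in opposite directions. After subtraction of each group's mean log2 CPM, the highest of the 45 pairwise correlations over the 16 libraries was that of Tlr8 and Tlr13 (Pearson r = 0.865, Spearman rho = 0.832), and it was 0.937 over the 8 ST-HFD libraries and 0.782 over the 8 LT-HFD libraries. The lowest was that of Tlr5 and Tlr13 (r = -0.735, rho = -0.765), at -0.882 and -0.629 within the durations. Tlr5 and Tlr9, which both fell with duration in IRF5-KO, had r = 0.592 and rho = 0.529. When the 2 libraries most distant from the first gene's median were left out, these r were 0.860, -0.720 and 0.457. All genes of a library share its depth and cell makeup, and no test was made, since the pairs were picked for their correlation.

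For the 3 members with the most counts, the 3 genes closest among the 11559 others by the same measure were as follows. Tlr13 was closest to Cpe (r = 0.983, rho = 0.971), which encodes carboxypeptidase E, to Lpl (r = 0.971, rho = 0.971), which encodes lipoprotein lipase, and to the kinase gene Cdk18 (r = 0.971, rho = 0.976). Cpe ran from 1.63 to 21.7 CPM in WT ST-HFD, 2.32 to 25.9 CPM in IRF5-KO ST-HFD, 2.45 to 41.4 CPM in WT LT-HFD and 14.8 to 142 CPM in IRF5-KO LT-HFD, and in each group the library with the least Tlr13 also had the least Cpe and the one with the most Tlr13 the most Cpe. Tlr8 was closest to Hadha (r = 0.965, rho = 0.965), a gene of mitochondrial fatty acid oxidation, to Psap (r = 0.958, rho = 0.938), which encodes prosaposin of the lysosome, and to the complement receptor gene C3ar1 (r = 0.955, rho = 0.941). Tlr7 was closest to Zfp110 (r = 0.846, rho = 0.785), Sesn1 (r = 0.834, rho = 0.762) and Ankrd10 (r = 0.827, rho = 0.750). When the 2 libraries most distant from the member's median were left out, r stayed between 0.773 and 0.982 for these 9 genes.

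**Figure D5:**
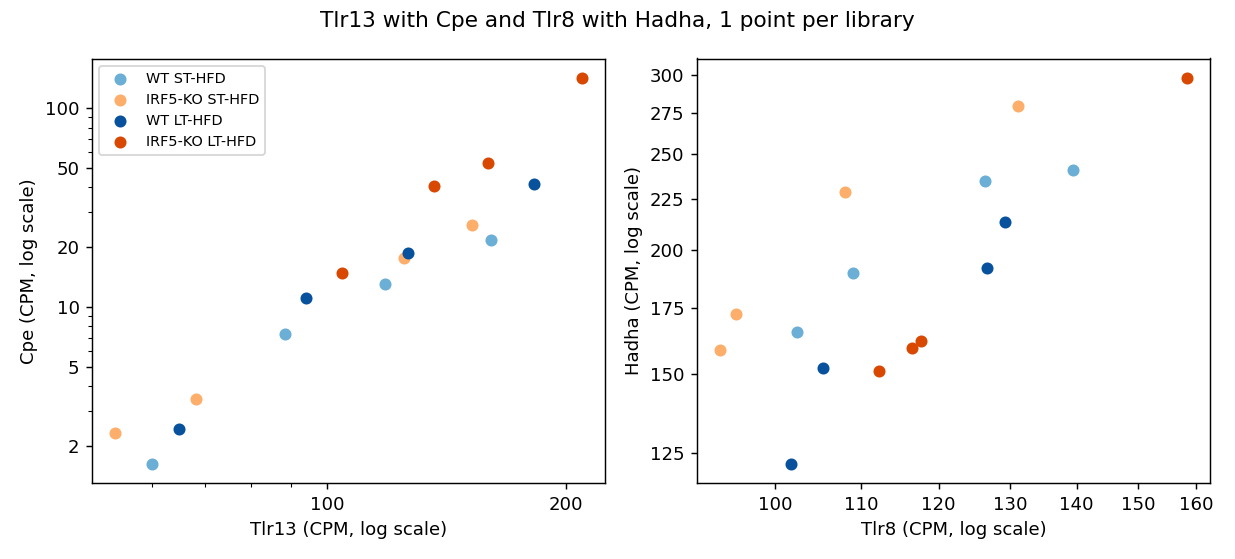
CPM of Cpe against Tlr13 (left) and of Hadha against Tlr8 (right) on log axes, with 1 point for each of the 16 libraries coloured by group. Within each of the 4 groups, libraries with more Tlr13 had more Cpe and libraries with more Tlr8 had more Hadha.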

How the data were processed

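Total RNA of F4/80+ ATMs was made into stranded, ribosomal RNA-depleted libraries and sequenced in pairs. The submitters' notes name fastp 0.19.11 and STAR 2.7.3a and the builds mm10 and mm9, of which the paper's methods name mm10. The authors deposited raw read counts per gene without normalization. The annotation release and strand setting are not given in the sources used here. The paper gives n = 4 per genotype at each duration and describes its n as numbers of mice. The labels tie no library to an animal, so each library was taken as 1 mouse, and p-values measure the spread between these libraries.

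The deposited counts were fitted with edgeR 4.0.16 under R 4.3.3 (filterByExpr, TMM factors, quasi-likelihood test, Benjamini-Hochberg adjustment over all tested genes, threshold 0.05). Genotypes were compared within each duration (8 libraries), and durations and the interaction over 16 libraries. CPM used TMM factors, RPKM merged exons of the GRCm38 annotation, and correlations log2 CPM with a prior count of 2. DESeq2 1.42.0, other scalings and filters, a replicate block and leaving out each library were alternatives. The fits were tested on simulated counts.

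The members, lists and tests were chosen with earlier results of these data known. The log2 fold change of every member was given in every comparison. Around them, Unc93b1, Myd88, Irf5, Tlr11 and Tlr12 were always named, with, per list, up to 3 genes of smallest p that passed the threshold, or at most 1 where none passed. Adgre1, listed under an older symbol, was matched by identifier. A check of replicate numbers correlated deviations from group means between same-numbered WT and IRF5-KO libraries, using genes averaging 20 or more counts. Correlations on ST-HFD were 0.381, 0.498, 0.162 and 0.299, all above 0.1, the limit set for pairs. The main test between genotypes nevertheless treated the libraries as unpaired, and the replicate block was used only in an alternative fit. Differently numbered ST-HFD libraries reached 0.476 and 0.429, so the numbers do not single out pairs, and the block changed no member's call between genotypes on ST-HFD. For LT-HFD the same-numbered values were -0.097, -0.118, 0.053 and 0.253.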

Additional observations from a re-analysis of the deposited data

Results flagged for a closer look

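Of 40 groups of 4 libraries (10 members in 4 groups), 3 held 1 library far from the other 3, and chance alone flags about 5% of groups. Tlr5 was at 31.5 CPM in IRF5-KO LT-HFD replicate 4, against 14.9 to 17.1 CPM in the other 3 libraries. Tlr8 was at 158 CPM in IRF5-KO LT-HFD replicate 2, against 112 to 118 CPM. Tlr4 was at 84.4 CPM in IRF5-KO ST-HFD replicate 4, against 65.3 to 67.9 CPM.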

How the results depend on the processing

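No member was called between genotypes or in the interaction under any alternative: DESeq2, RLE or upper-quartile factors, no filter, a replicate block, a fit over 16 libraries, or without any 1 library. In WT between durations, DESeq2 called 2 members, Tlr9 and Tlr7, the 8 WT libraries alone 0, the 2 libraries lowest in Tnfaip3 left out (chosen after the data were seen) 0, and fits without 1 library 0 to 2. In IRF5-KO these counts were 2 or 3, Tlr4 being the added one under upper-quartile factors, the block, the 8 IRF5-KO libraries and without WT LT-HFD replicate 1. Between durations same-numbered libraries did not all deviate together (correlations -0.384 to 0.363), and with a replicate block 1 member was called in WT, Tlr7 (edgeR adjusted p = 0.0132) in place of Tlr9 (0.0542), and 3 in IRF5-KO. With upper-quartile factors Tlr7 was also called in WT (0.0224) and Tlr9 was not (0.0678). Of 975 alternative values of single genes, 952 kept their direction and call or moved by under 1 SE, 9 lost a call, all of them Tlr9 in WT, 11 gained one and 0 called values changed sign. Of the values never called, 44 changed sign. The order of levels kept all 10 places with the longest transcript or without TMM factors. Counts of Tlr3, 10 to 40 per library, and Tlr6, 22 to 65, limit what could be detected for them.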
